A study of Mus musculus with 2 samples.

Results

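The cytosolic ribosomal protein genes, the Rps and Rpl genes that encode the proteins of the 40S and the 60S ribosomal subunits, were read on 2 Agilent whole mouse arrays hybridized with prostasphere RNA. The members were every probe, other than control spots, whose gene name on both arrays was Rps or Rpl followed by digits, an optional a, l, x or y and an optional last digit, so that the Rps6k kinases were not included. This gave 78 genes of 27827 gene names and 134 probes of 41174 on the array. There were 31 small subunit (Rps) and 47 large subunit (Rpl) genes, 36 of them with 1 probe and 42 with more than 1, up to 4. A probe was tested where the same dye was well above background on both arrays, which held for 126 of the 134 probes, from 76 of the 78 genes. The 8 untested probes were those of Rpl3l and Rpl39l, which had no other probe, and 1 probe each of Rps2, Rps4x, Rps6, Rps15a and Rpl35a, which also had tested probes.

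Prostaspheres are spheres that prostate epithelial cells form in Matrigel, and they were used in the study to ask which genes depend on Sox9, a transcription factor of the developing prostate. Spheres were grown from C57/Bl6J background epithelium, named in the labels as urogenital sinus epithelium (UGE) collected at 16 days post conception, whereas adult prostate is the tissue of the prostasphere assay in the study's methods. After 6 days in Matrigel with dihydrotestosterone they were given tamoxifen (TAM, 5 µM) or vehicle for a further 6 days. On the genotype comparison array, Cy5 held RNA of SOX9 wild type spheres with TAM and Cy3 that of ER-Sox9flox/flox spheres with TAM. On the treatment comparison array, both RNAs came from ER-Sox9flox/flox spheres, given vehicle (Cy5) or TAM (Cy3). The floxed cells, written ERCre+/+Sox9flox/flox in the labels, have loxP sites around Sox9 and a tamoxifen-inducible Cre expressed from the Rosa26 locus, which is active in nearly all cell types, so the deletion is not limited to 1 epithelial lineage. The labels call both RNAs of the treatment comparison Sox9 null, and the treatment tells them apart. On both arrays, Ctrl stands in the source name of the Cy3 channel and SOX9 in that of the Cy5 channel, although by title and treatment Cy3 holds the deleted RNA, so the direction of each ratio rests on titles, treatments and dyes. Neither the number of animals nor the number of cultures behind an RNA is given. Every log2 ratio below is Sox9-expressing RNA (wild-type with TAM, or floxed with vehicle) over Sox9-deleted RNA (floxed with TAM), with each array as 1 replicate (n = 2). The arrays are nevertheless different comparisons. Loss of Sox9 cannot be told apart from other differences of genotype on the genotype array, nor from exposure to TAM on the treatment array. The Sox9-expressing RNA was labeled with Cy5 on both arrays, so a dye bias of a probe and a response to Sox9 cannot be told apart.

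A cytosolic ribosome is built of ribosomal RNA and a fixed set of ribosomal proteins, and its subunits are assembled in the nucleolus before export. Ribosomal protein mRNAs are among the most abundant of a growing cell, and in mammals most begin with a terminal oligopyrimidine (TOP) tract, a C followed by a run of pyrimidines, through which mTORC1 controls their translation. Some free ribosomal proteins, among them Rpl5 and Rpl11, bind and inhibit Mdm2, the ligase that degrades p53, and several are mutated in Diamond-Blackfan anaemia.

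The sequences behind the most discordant member are the 60-base oligonucleotides of Rps3a, a small subunit protein. The array annotation (mm9) places the first probe at chr3:85942027-85942458 on the minus strand, a span longer than the probe itself, starting at base 643 of its transcript. It places the second at chr3:85941868-85941892 on the same strand, a span shorter than the probe, starting at base 378. They are shown because 1 of them separated the wild-type RNA from the 3 floxed RNAs and the other did not; no base is set in capitals.
Rps3a, first probe: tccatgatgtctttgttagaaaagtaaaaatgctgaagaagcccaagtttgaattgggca
Rps3a, second probe: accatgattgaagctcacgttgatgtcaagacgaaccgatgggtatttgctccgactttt

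Start sites from RefSeq (GRCm38.p6) were available for 59 of the 78 genes, 58 by symbol and Rps3a under its present name Rps3a1. The window of 30 bases centred on each start site was searched, on the transcribed strand only, for the letters CTTTC, the letters CTTCC and the letters CTCTT, short pyrimidine runs that can overlap each other. Of 71 start sites of these genes, 28 (39.4%) held at least 1 of them, against 12.9% of 32851 start sites of all genes. The windows of the 5 genes with the highest log2 ratio are shown, followed by those of Rps27 and its paralogue Rps27l, which lay at opposite ends of the list, and of Rpl11. Capitals mark the matches.
Rpl37a (chr1:72711245-72711274, plus strand): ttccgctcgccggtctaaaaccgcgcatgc
Rpl7a (chr2:26910792-26910821, plus strand): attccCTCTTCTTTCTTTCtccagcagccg
Rpl12 (chr2:32961697-32961726, plus strand): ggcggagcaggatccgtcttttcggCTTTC
Rps23 (chr13:90923107-90923136, plus strand): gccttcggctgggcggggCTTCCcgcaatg
Rpl5 (chr5:107900513-107900542, plus strand): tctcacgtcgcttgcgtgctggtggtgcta
Rps27 (chr3:90213634-90213663, minus strand): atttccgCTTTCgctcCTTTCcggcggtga
Rps27l, first start site (chr9:66946071-66946100, plus strand): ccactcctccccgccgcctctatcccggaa
Rps27l, second start site (chr9:66946398-66946427, plus strand): accatgggcttcagggtcactaacgggcct
Rpl11 (chr4:136053379-136053408, minus strand): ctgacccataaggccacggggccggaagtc

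The median log2 ratio was nearly the same with and without a match. It was 0.40 over 26 tested genes with a match, 0.39 over 31 without and 0.41 over 19 with no start site to search. Of the windows shown, Rpl37a and Rpl5 are among the 5 highest genes and hold none of these letters. The search does not tell whether an mRNA begins with a TOP tract, since its letters were found at only 39.4% of the start sites. These medians therefore do not compare mRNAs with and without such a tract.

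Ribosomal protein probes were mostly a little brighter in Sox9-expressing than in Sox9-deleted RNA, on both arrays and in both subunits. Of the 126 tested probes, 111 (88.1%) were above 0 on both arrays, against 34.6% of the 22731 tested probes of the array, and 4 (3.17%) were below 0 on both, against 32.6%. The median log2 ratio of the members was 0.32, a 1.25-fold difference, and that of all tested probes was 0.01. The genotype comparison alone gave 0.29 and the treatment comparison alone 0.38, where the medians of all tested probes were -0.00 and 0.01. The quartiles of the members were 0.20 and 0.45, so the shift was small and broad rather than carried by a few genes. In bulk RNA, a different share of the cells and a different amount of mRNA per cell cannot be told apart.

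**Figure D1:**
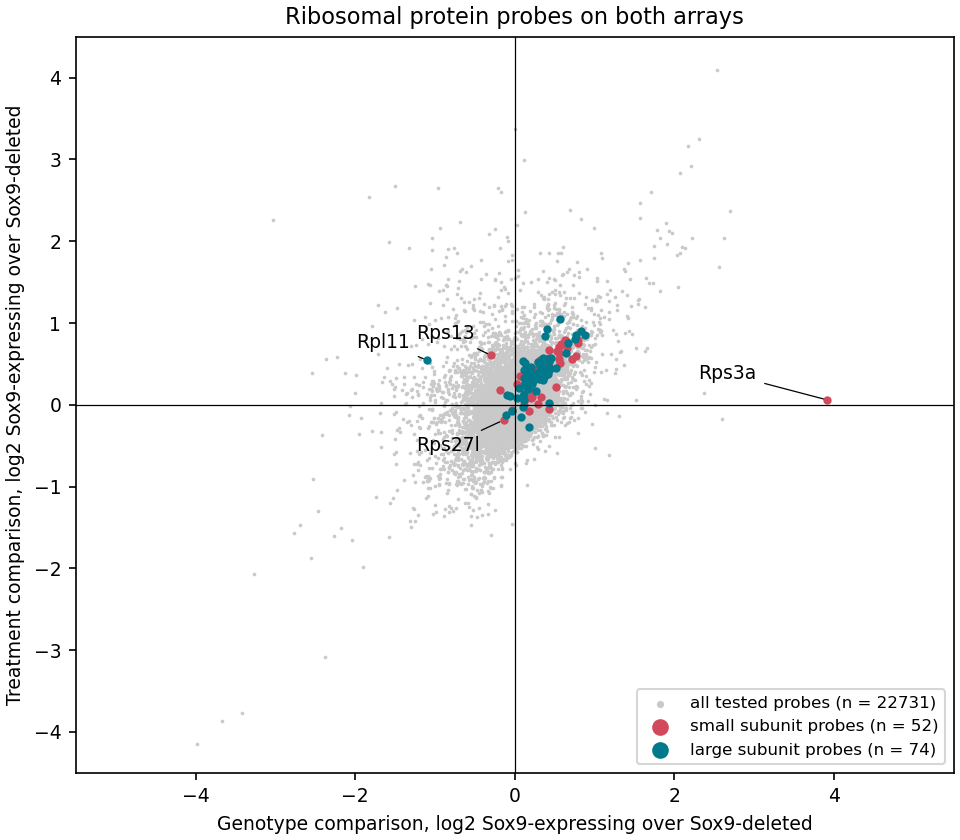
Log2 ratio of Sox9-expressing over Sox9-deleted RNA on the genotype comparison array (x axis) and the treatment comparison array (y axis), 1 point per tested probe. Grey points are the 22731 tested probes, red points the 52 small subunit probes and blue-green points the 74 large subunit probes. Most member probes lie in the upper right, 111 of 126 above 0 on both axes, and the first Rps3a probe lies at 3.92 and 0.06.

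No single probe of the list passed the test after adjustment. limma called 0 of the 126 probes at an adjusted p under 0.05, where it called 2 (0.0088%) of all tested probes, and the lowest adjusted p of a member was 0.0883. At an unadjusted p under 0.05 limma called 78 of the 126 (61.9%) as higher, against 9.5% of all tested probes, and 0 as lower, against 8.05%. The methods' t-test called 34 at an unadjusted p under 0.05 (8.49% of all tested probes), 33 of them higher, and 0 after adjustment. A difference of 2-fold or more, in 1 direction, was reached on both arrays by 0 member probes, against 0.418% of all tested probes. With median centring in place of loess, the member median was 0.79, which is 0.60 above the 0.18 that all tested probes then had, and limma called 46 of the 126 at an adjusted p under 0.05, against 522 (2.3%) of 22731 in all. Bright probes outside the list also rose under that setting. At a log2 brightness of 13 to 17 the median was 0.90 for members and 0.52 for other probes, a gap of 0.38. The direction of the member median was the same under each of the normalizations and sets of values tried, where it lay between 0.22 and 0.79.

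The subunits were alike in direction. Read from the brightest tested probe of each gene, and with the paralogues set aside, 29 of 30 small subunit genes and 41 of 43 large subunit genes were above 0 on both arrays. The exceptions were Rps13, Rpl11 and Rpl31. The median log2 ratio was 0.46 for the small and 0.35 for the large subunit genes, and both subunits had a higher median in the treatment comparison (0.54 and 0.39) than in the genotype comparison (0.42 and 0.31). This order of the arrays depends on their scaling: with the arrays scaled to 1 spread, the median over the 126 member probes was 0.40 in the genotype and 0.28 in the treatment comparison. The difference between the subunits was not tested. Across the 76 tested genes the correlation between the arrays was 0.60 by Pearson and 0.79 by Spearman, given as a description, since the genes share the same RNAs, dyes and normalization.

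**Figure D2:**
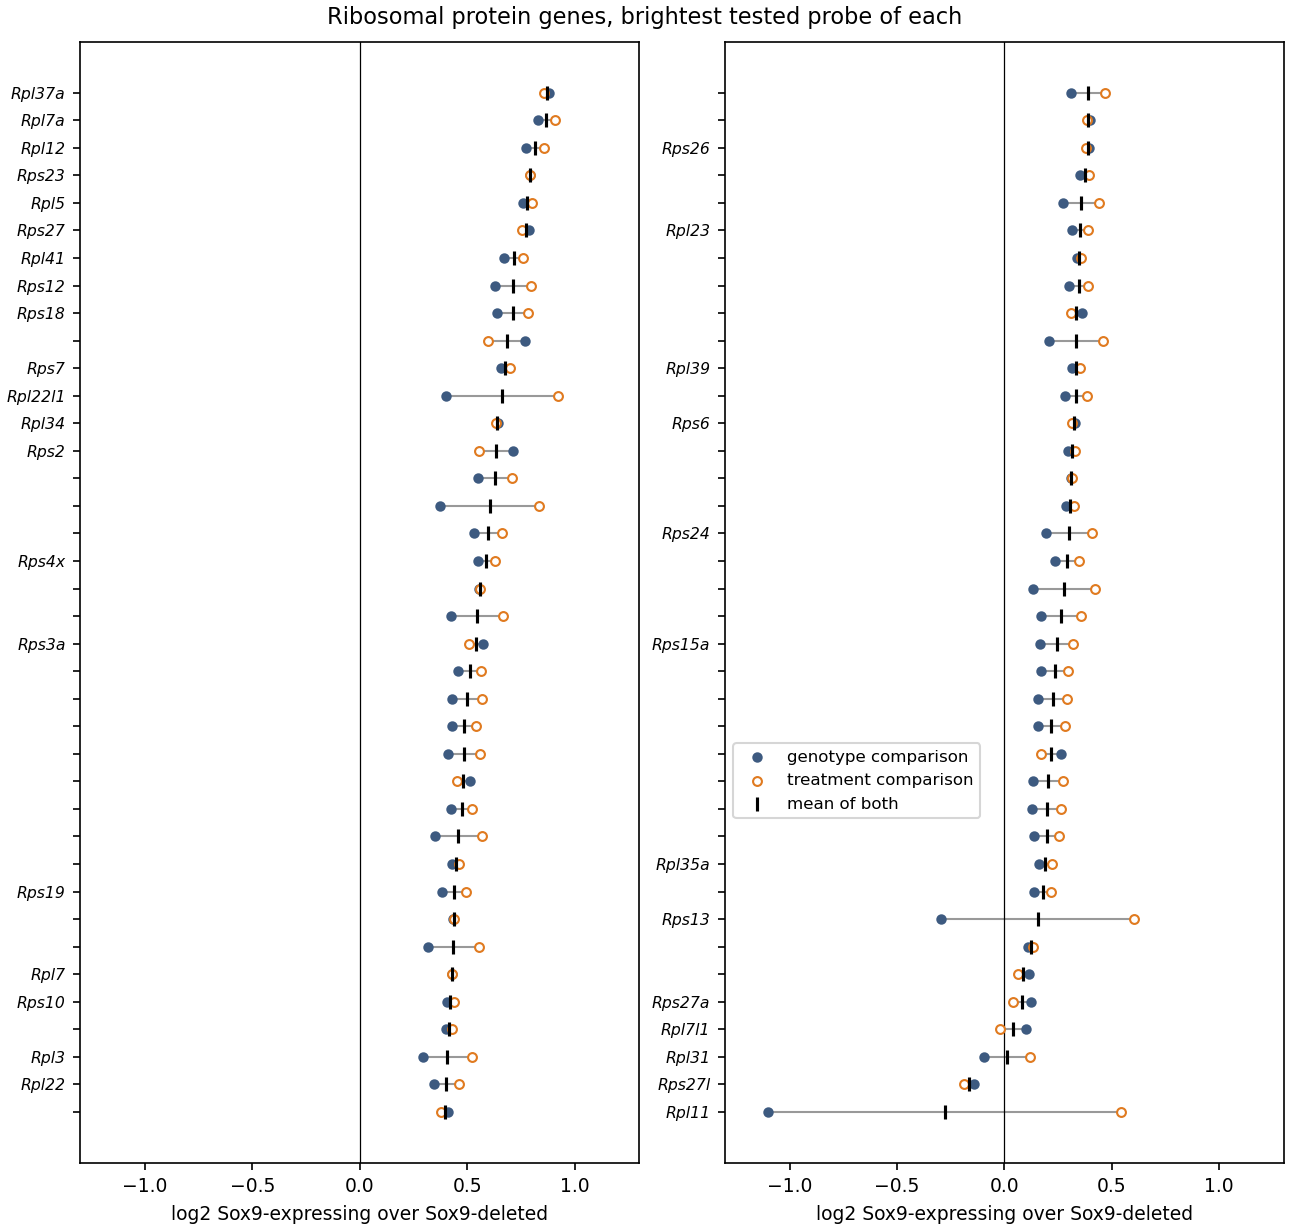
Log2 ratio of Sox9-expressing over Sox9-deleted RNA for the 76 genes with a tested probe, read from the brightest tested probe and ordered by the mean of the arrays, with the higher-ranked genes on the left and names beside the genes described in the text. Filled circles are the genotype comparison, open circles the treatment comparison, and the tick is their mean. The grey line joins the 2 arrays, and it is long for Rpl11, Rps13 and Rpl22l1 and short for most of the others.

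The size of the log2 ratio went with the brightness of the probe. Across the 126 tested member probes, which share both arrays, the mean log2 ratio and the mean log2 brightness correlated at 0.40 by Pearson and at 0.68 by Spearman. Bright probes outside the list also lay above 0, though less far. At a log2 brightness of 15 to 17 the median was 0.58 for 28 member probes and 0.26 for 71 other probes. From 14 to 15 these were 0.34 (38 probes) and 0.11 (147 probes), and from 13 to 14 they were 0.32 (16 probes) and -0.01 (386 probes). Members therefore lay above other probes of like brightness, by 0.32 in the brightest class, where all 28 were above 0 on both arrays against 64.8% of the other probes. From 8 to 10 and from 10 to 12 the members had medians of 0.24 (5 probes) and 0.23 (11 probes) and the other probes 0.01 and -0.01. Below 8 the medians were 0.14 over 21 member probes and 0.01 over 10214 others. The 21 had medians of 0.14 in the genotype and 0.06 in the treatment comparison, and 57.1% were above 0 on both arrays. There the constant added in background correction makes log2 ratios smaller than they are. These dim members had medians of 0.48 and -0.05 with the scanner ratio, and of 0.24 and -0.003 with the deposited values. Under those settings 38.1% and 42.9% were above 0 on both arrays. Before dye normalization both bright and dim spots favoured Cy5 on both arrays, the bright ones more. At a log2 brightness of 13 or more, the median log2 ratio of the spots as scanned was 1.45 in the genotype and 1.63 in the treatment comparison for 82 member probes, and 1.13 and 1.18 for 604 others. For probes outside the list under a log2 brightness of 8 it was 0.76 and 0.72. A loess curve with a narrower span, chosen after the bright probes outside the list were seen above 0, brought those of 15 to 17 to a median of 0.05 and left the members there at 0.35, a gap of 0.30. The part of brightness and dye in the members' log2 ratios was not tested beyond these values.

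**Figure D3:**
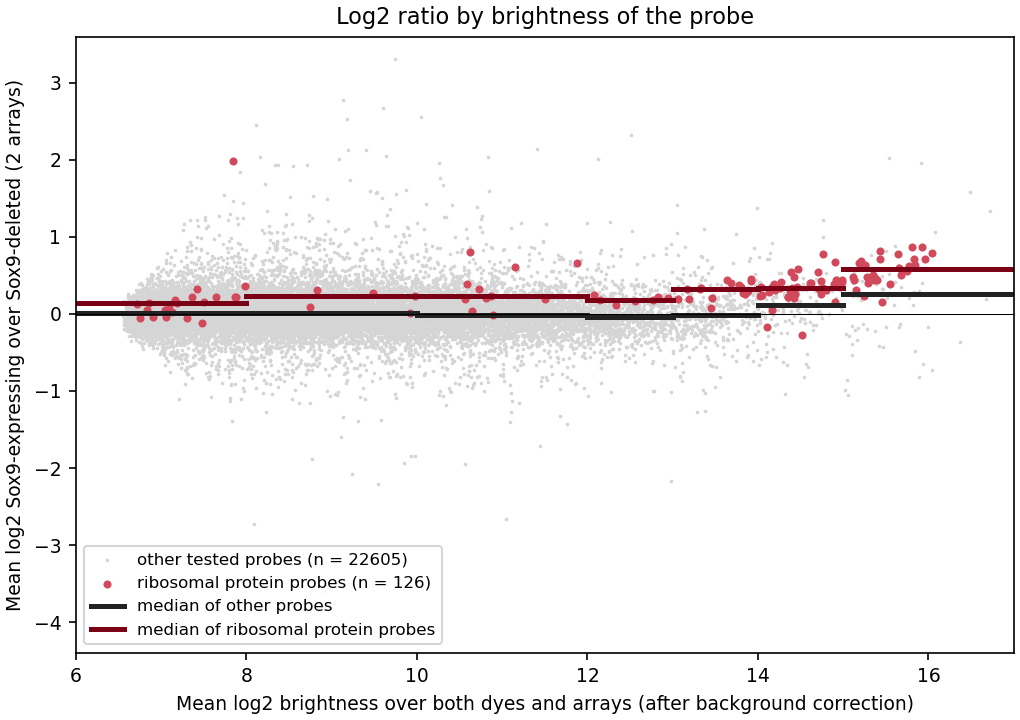
Mean log2 ratio over both arrays (y axis) against the mean log2 brightness of the probe over both dyes and arrays (x axis), for 126 ribosomal protein probes (red) and 22605 other tested probes (grey). Bars are the medians within classes of brightness, dark red for ribosomal protein probes and black for the others. The dark red bars lie above the black bars in each class, and both rise in the brightest classes.

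The 5 genes with the highest log2 ratios had close values on both arrays. Rpl37a, a large subunit protein, had log2 levels of 16.38 in wild-type with TAM, 15.50 in floxed with TAM, 16.32 in floxed with vehicle and 15.47 in the other floxed with TAM (chr1:72760137-72760196, mm9). Both Sox9-expressing RNAs were above both Sox9-deleted RNAs, and the mean log2 ratio was 0.87 ± 0.01 (SD, n = 2, limma adjusted p = 0.0883), a 1.83-fold difference. Rpl7a, also of the large subunit, had levels of 16.18 and 15.35 on the first array and 16.31 and 15.40 on the second, with a mean log2 ratio of 0.87 ± 0.05 (limma adjusted p = 0.0883). Its groups did not overlap either, but its other probes had smaller means, 0.26 and 0.03, the latter on a dim probe. Rpl12, a protein of the base of the ribosomal stalk, had levels of 15.84, 15.07, 15.80 and 14.94 in the same order and a mean of 0.81 ± 0.06. The annotation puts its probe on chromosome 10, whereas the RefSeq gene is on chromosome 2. Rps23, which lines the decoding site of the small subunit, had levels of 16.41, 15.61, 16.49 and 15.70 and a mean of 0.79 ± 0.00. Rpl5, which carries 5S ribosomal RNA into the large subunit, had levels of 16.02, 15.26, 16.04 and 15.23 and a mean of 0.78 ± 0.03. For these last 3 the limma adjusted p was 0.0903. These 5 are read here as the top of a continuous range, since Rps27 (0.77), Rpl41 (0.72), Rps12 (0.71) and Rps18 (0.71) followed without a gap. All 5 were read from very bright probes, with a log2 brightness of 15.4 to 16.0. From 15 to 17 the medians were 0.58 for members and 0.26 for other probes. The limma standard errors of the 5 lay between 0.07 and 0.08, so their order among themselves was within the error. Their rank also depended on the values used: with the scanner ratio the 5 lay between 0.40 and 0.54 and with a loess span of 0.1 between 0.54 and 0.63, and Rpl22l1, whose arrays differed more, was above them with 0.70 and 0.68.

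The genes at the other end included some with a log2 ratio near 0 on both arrays, some whose arrays disagreed, and Rps27l, which was a little below 0 on both. Rpl31, a large subunit protein, had log2 levels of 9.80, 9.89, 10.04 and 9.92, with a mean log2 ratio of 0.01 ± 0.15 (limma adjusted p = 0.947). Its sign depended on the processing, and its second, dimmer probe had a mean of 0.32. Rps27a, which is made as a fusion with ubiquitin, had levels of 13.52, 13.40, 13.47 and 13.42 and a mean of 0.08 ± 0.06 (limma adjusted p = 0.613). The groups overlapped for Rpl31, and for Rps27a they were separated by a small step.

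Rps3a gave the largest disagreement between probes of 1 gene and between arrays. As scanned, with the local background subtracted, the first probe had a brightness of 3257 in wild-type RNA with TAM and of 32.4, 37.7 and 23.2 in the floxed RNAs with TAM, with vehicle and again with TAM. The wild-type RNA stood apart from all 3 floxed RNAs, whether Sox9 had been deleted or not, although the scanner software marked the spot as well above background in all 4. The genotype comparison thus gave a log2 ratio of 3.92 and the treatment comparison 0.06, with a mean of 1.99 ± 2.73 (limma adjusted p = 0.388). The second probe had a brightness of 47076, 14583, 48542 and 14841 in the same order and log2 ratios of 0.57 and 0.51, a mean of 0.54 ± 0.05 (limma adjusted p = 0.121). On the second probe the wild-type and the floxed, vehicle-treated RNA, both in Cy5, differed little, and Rps3a sat among the other small subunit genes. A log2 ratio above 3 in the genotype comparison with one within 0.5 of 0 in the treatment comparison was found for 1 of 22731 tested probes (0.0044%), this one, by a rule chosen after its values were seen. The first probe had a log2 ratio between 3.92 and 6.09 against the wild type, and between -0.10 and 0.12 against vehicle, under the alternatives tried. Rps3a was the only gene of the list with tested probes whose mean log2 ratios differed by 1 or more; the next was Rpl7a, with 0.84.

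Rpl11 and Rps13 also differed between the arrays. Rpl11, a Mdm2-binding protein of the 5S particle, had a brightness of 21203 in wild-type with TAM, 21222 in floxed with TAM, 46868 in floxed with vehicle and 14017 in floxed with TAM on its brightest probe (chr4:135605885-135606207, mm9). Its log2 ratios were -1.10 and 0.54, a mean of -0.28 ± 1.16 (limma adjusted p = 0.763), and the mean turned to 0.23 with median centring. Its second, much dimmer probe had log2 ratios of 0.42 and 0.02, so the low value of the genotype comparison was seen on 1 probe only. Rps13, a small subunit protein chosen after its values were seen, had a brightness of 34308, 19457, 68216 and 19126 in the same order, and log2 ratios of -0.29 and 0.60. Its second, dim probe went the other way, with 0.42 and -0.05. On both bright probes the wild-type RNA read well below the floxed, vehicle-treated RNA in the same dye, and for Rpl11 the floxed RNA with TAM also read higher on the genotype array than on the treatment array. A difference between the arrays of 0.8 or more was found for 3 of the 126 tested member probes, those of Rps3a, Rpl11 and Rps13, and for 2.9% of all tested probes. The median absolute difference between arrays was 0.12 for member probes and 0.13 for all.

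**Figure D4:**
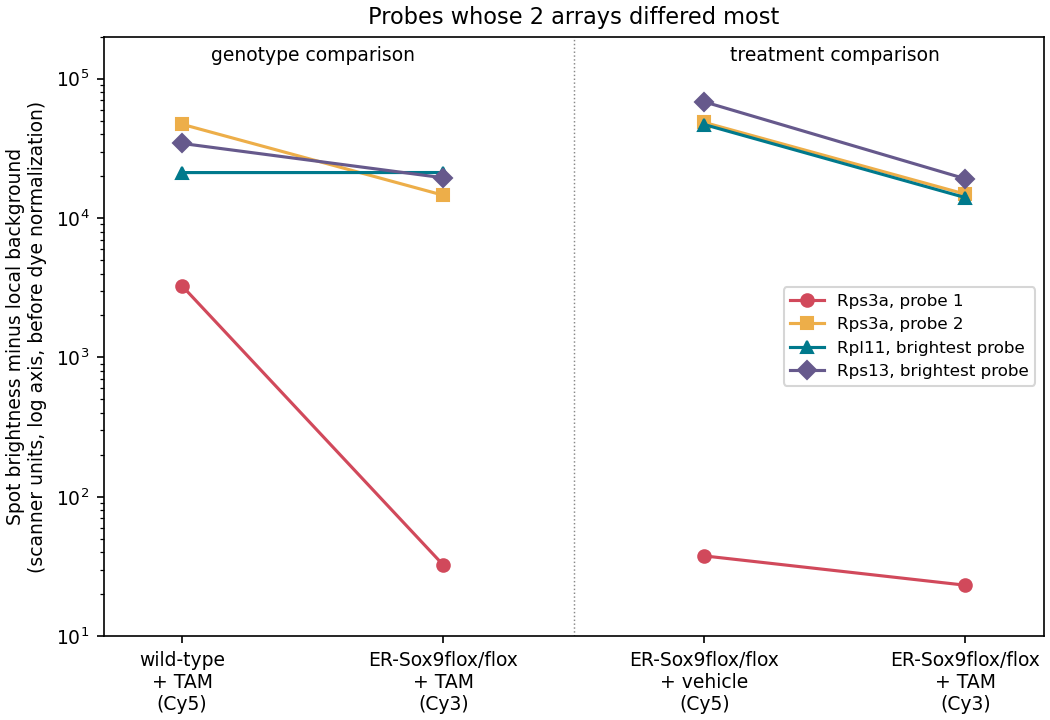
Brightness of the spot minus its local background (log axis, scanner units, before dye normalization) in each of the 4 RNAs, for both Rps3a probes and the brightest probes of Rpl11 and Rps13. Lines join the RNAs of 1 array, and Cy5 was the brighter dye on most bright spots. The first Rps3a probe reads 3257 in wild-type RNA and 23.2 to 37.7 in the 3 floxed RNAs, while the second reads alike on both arrays.

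Paralogues of ribosomal proteins did not share 1 pattern. Rps27, a small subunit protein with a zinc finger, had log2 levels of 15.10, 14.31, 15.23 and 14.47 in wild-type with TAM, floxed with TAM, floxed with vehicle and floxed with TAM, and a mean log2 ratio of 0.77 ± 0.02 (limma adjusted p = 0.0903). Rps27l, its paralogue and a p53-induced gene, had levels of 14.05, 14.19, 14.00 and 14.19 and log2 ratios of -0.14 and -0.19, a mean of -0.16 ± 0.03 (limma adjusted p = 0.354). It was the only gene of the list read below 0 on both arrays, but it was not past the test. With median centring its mean was 0.32, a setting under which the median of other probes of like brightness (14 to 15) went from 0.11 to 0.61, so it lay below those probes under both. Rpl22l1 had levels of 11.87, 11.47, 12.53 and 11.61 and a mean of 0.66 ± 0.37 (limma adjusted p = 0.188), while its dim second probe had -0.05. Rpl22, whose product is known to repress Rpl22l1, had means of 0.40 on its brightest probe and 0.81 on the other. Both members of that pair were thus above 0 on both arrays on their brightest probes. Rpl7l1, a relative of Rpl7, had log2 ratios of 0.10 and -0.02, and its second probe -0.11 and -0.12. Rpl7 itself had a mean of 0.43. Rpl3l and Rpl39l, which are known mainly from striated muscle and from testis, were not well above background in any of the 4 RNAs, whereas Rpl3 and Rpl39 had means of 0.41 and 0.33.

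Most genes with known roles outside or beside the ribosome had log2 ratios like the rest, but Rpl11 and the ubiquitin fusion gene Rps27a (0.08) were lower. Of the 4 Mdm2-binding proteins, Rpl5 (0.78), Rps7 (0.68) and Rpl23 (0.35) were above 0 on both arrays and Rpl11 was not. Of 9 genes mutated in Diamond-Blackfan anaemia, 8 were above 0 on both arrays on their brightest tested probes, again with Rpl11 as the exception. Rps19, the gene most often mutated in that disease, had log2 ratios of 0.38 and 0.50 on its brightest probe and a mean of 0.44 ± 0.08 (limma adjusted p = 0.152). Its other probes had smaller means, -0.007 and 0.14, the latter on a dim probe. The former, at a log2 brightness of 10.9, had log2 ratios of -0.19 and 0.18, so its arrays differed in sign. Rps10 had a mean of 0.42, Rps26 of 0.39, Rps24 of 0.30 and Rpl35a of 0.19. Rps6, the substrate of S6 kinase, had levels of 13.25, 12.92, 13.39 and 13.08 and a mean of 0.32 ± 0.01 (limma adjusted p = 0.186). Rps4x, the X-linked small subunit protein, had a mean of 0.59 ± 0.05. Rpl34 and Rpl23, which the study annotated in its gene themes, had means of 0.64 ± 0.01 and 0.35 ± 0.05 (limma adjusted p = 0.105 and 0.179), so both were in the same direction as most of the list.

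Ribosomal proteins whose symbols the naming rule leaves out lay in the same range. All 7 of 7 were above 0 on both arrays and their median was 0.37, and limma called 0 at an adjusted p under 0.05 and 6 at an unadjusted p under 0.05. Of all 15131 tested genes, each read from its brightest tested probe, 33.8% were above 0 and 33.8% below 0 on both arrays, and at an unadjusted p under 0.05 limma called 10.5% as higher and 9.07% as lower, and 0.0132% at an adjusted p under 0.05. The stalk proteins Rplp0, Rplp1 and Rplp2, which recruit translation factors, had means of 0.63, 0.63 and 0.51. Fau, made as a fusion with a ubiquitin-like protein, had 0.37, Rpl36al had 0.26, and Rpsa, also known as the laminin receptor, had 0.20.

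Translation factors with TOP mRNAs were also mostly above 0, whereas genes of ribosome assembly were not. Of 18 translation factors and other TOP genes, 17 (94.4%) were above 0 on both arrays and 0 below 0 on both, against 33.8% each of all genes. Their median was 0.31. After adjustment limma called 0 of them, and before it 11 (61.1%) as higher and 0 as lower, against 10.5% and 9.07% of all genes. The highest was Gnb2l1 (Rack1), a small subunit scaffold, with log2 ratios of 0.92 and 0.85 (mean 0.88 ± 0.05), and the lowest was Tpt1, the translationally controlled tumour protein, with -0.05 and 0.11 (mean 0.03 ± 0.12). Of 28 genes of ribosome assembly and ribosomal RNA synthesis, 4 (14.3%) were above 0 on both arrays and 13 (46.4%) below 0 on both, against 33.8% each of all genes, and with median centring these became 16 and 1. Their median was 0.01 on the genotype array and -0.25 on the treatment array. Their median of the means, -0.12, became 0.16 with median centring, where all tested probes had 0.18. The median log2 brightness of these genes was 10.4, and probes outside the members at 10 to 12 had 0.31 under that setting. The lowest of them was Rrp9, a component of the U3 particle, with -0.17 and -0.68, and the highest was Nop10, of the H/ACA particles, with 0.11 and 0.14. limma called 0 of the 28 after adjustment, and before it 0 as higher and 3 (10.7%) as lower, the latter near the 9.07% of all genes.

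The mitochondrial ribosome and the regulators of ribosomal protein synthesis did not share the shift of the cytosolic ribosome either, but their probes were dimmer. Median log2 brightness was 10.6 and 9.81 for them and 10.4 for ribosome assembly, against 14.5 for the member genes and 13.4 for the TOP genes. From 8 to 10 and from 10 to 12, member probes had medians of 0.24 and 0.23 and other probes 0.01 and -0.01. The part of brightness in the contrast between lists was not tested. Of 74 tested mitochondrial ribosomal protein genes, 19 (25.7%) were above 0 and 31 (41.9%) below 0 on both arrays, against 33.8% each of all genes, and their median was -0.03. With median centring these became 49, 0 and 0.28, where all tested probes had a median of 0.18 and other probes of 10 to 12 had 0.31. Mrpl20 was the highest, with 0.52 and 0.09, and Mrpl45 the lowest, with -0.33 and -0.43. Of 15 tested genes of mTORC1 and Myc control, 5 were above 0 and 7 below 0 on both arrays, and their median was -0.03. With median centring these 3 values became 7, 0 and 0.16, where other probes of 8 to 10 had a median of 0.27. Eif4ebp2, a repressor of cap-dependent translation, was the highest with a mean of 0.46 ± 0.03, and Mxd1, a Max partner that opposes Myc, was the lowest with -1.08 and -0.29. Myc had -0.18 and -0.27, a mean of -0.22 ± 0.06 (limma adjusted p = 0.274). limma called 0 genes of these lists at an adjusted p under 0.05. Before adjustment it called 0 of the 74 mitochondrial genes as higher and 3 (4.05%) as lower, and 2 of the 15 mTORC1 and Myc genes as higher and 5 as lower, against 10.5% and 9.07% of all genes.

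**Figure D5:**
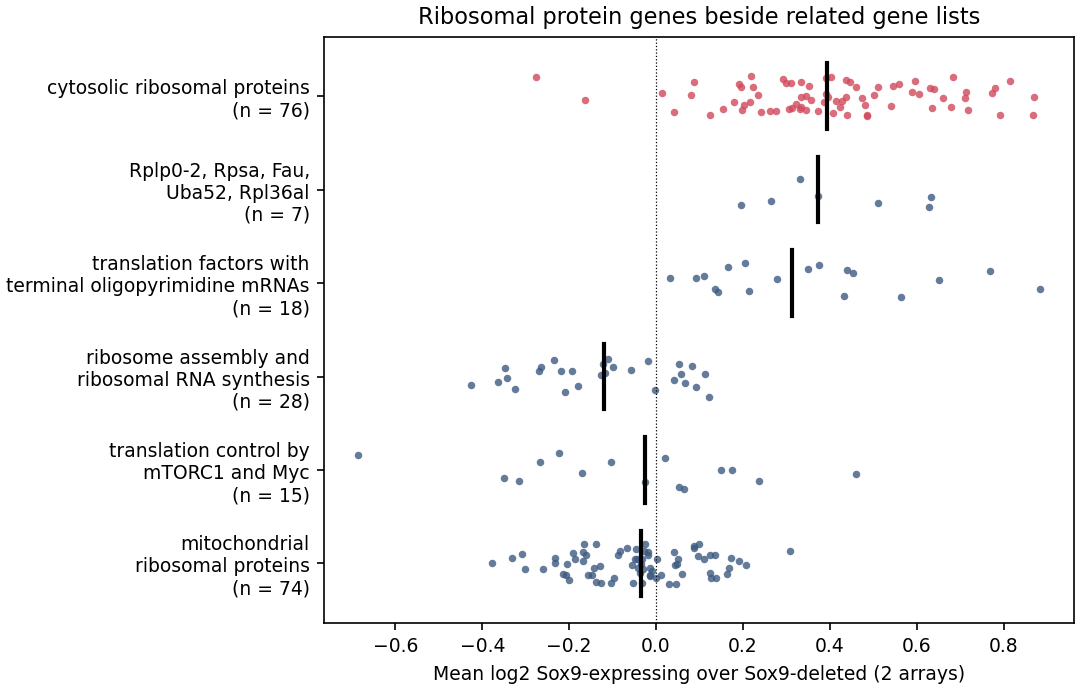
Mean log2 ratio over both arrays (x axis) of each gene, read from its brightest tested probe, for the cytosolic ribosomal proteins (red) and 5 related lists (blue), with the number of genes beside each name. The black bar is the median of the list and points are spread vertically for legibility. The medians are 0.39 for the cytosolic ribosomal proteins, 0.37 for those outside the naming rule and 0.31 for the translation factors, and they lie between -0.12 and -0.03 for the other 3 lists. Median log2 brightness is 14.5, 15.6 and 13.4 for the first 3 lists and 10.4, 9.81 and 10.6 for the others. With median centring the last 3 lists turn above 0, but that setting moves all tested probes to a median of 0.18. It moves probes outside the members to 0.27 at a log2 brightness of 8 to 10 and to 0.31 at 10 to 12.

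Several facts of the whole profile stand beside these values. The brightest Sox9 probe (chr11:112647008-112647067, mm9) had log2 ratios of 2.69 and 2.37, in the direction of the labels, although 1 of its 3 probes was below 0 on both arrays. All 7 epithelial markers were well above background in all 4 RNAs, with summed levels of 318879 to 390522 in the Sox9-expressing and 218506 to 259753 in the Sox9-deleted RNAs, and they did not share 1 direction. Krt5 (mean log2 ratio 2.02), Krt14 (1.96), Trp63 (1.60) and Epcam (0.42) were above 0 on both arrays, Krt18 (-0.65) and Cdh1 (-0.32) were below 0 on both, and Krt8 (-0.36) differed between the arrays. All 5 proliferation markers were above 0 on both arrays, with summed levels of 4677 to 5922 against 4042 to 4181. The 7 fibroblast markers were well above background in all 4 RNAs, with 29173 to 74848 against 45299.5 to 52308, and their median was -0.80 in the genotype and 0.85 in the treatment comparison. Leukocyte markers (3 of 5 well above background in all 4 RNAs, Ptprc and Cd3e in none) summed to 2114 to 3107 against 3422 to 3894, endothelial markers (2 of 3, Pecam1 in none) to 408 to 419 against 412 to 453, and skeletal muscle markers (1 of 3 in all 4 RNAs) to 637 to 3522 against 1058 to 1439. The part of these cells in the ribosomal protein values was not tested.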

How the data were processed

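Per the file headers, the authors scanned the arrays, whose annotation names mm9, with Agilent Feature Extraction 10.5.1.1, which deposited mean and background intensities of each spot and a log10 ratio of Cy5 over Cy3 on its own processed signals. The authors also deposited processed values, which behave as log2 ratios (slope 3.12 and 3.14 on the log10 ratio, medians -0.01 and -0.00). The steps behind them are not given in the sources used here.

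Total RNA was amplified with an oligo(dT) primer, labeled and hybridized on 1 slide. Mean intensities were corrected with normexp (offset 50), control and outlier spots were left out, and loess (span 0.3) was done within each array (limma 3.58.1, R 4.3.3). The mean of the 2 arrays was tested against 0 with lmFit and eBayes (2-sided) and p-values were adjusted by Benjamini-Hochberg over the 22731 tested probes. With 1 residual degree of freedom, the spread rests mainly on all probes (prior SD 0.119), and it may be technical. Levels are log2 intensities after these steps and a quantile normalization of mean brightness between the arrays (Aquantile), which leaves the log2 ratios as they were. Comparisons of levels between the arrays rest on that step, and levels are not comparable between probes. A gene was read from its brightest tested probe. As log2 ratios of members rose with brightness, this rule favours larger values: the member median was 0.39 over genes and 0.32 over all tested member probes. Medians and counts over a list have no test. Probes can cross-hybridize with copies: RefSeq lists 304 pseudogenes named for 59 of the 78 genes. The number of arrays limits the precision.

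Members and lists were chosen with earlier results of these data known. Named genes are Sox9, the 5 highest and 5 lowest members, members with discordant or no tested probes, paralogues, genes of set roles, the 2 that the study annotates, and the ends of each related list. Alternatives were median centring, loess with the members at weight 0, an offset of 10, no background subtraction, the scanner and deposited ratios, other filters, scaling, the methods' t-test, each array alone and a span of 0.1. On simulated data for this comparison, limma called 152 of 200 changed and 8 unchanged probes of 22731, and 62 of 100 that differed 2-fold. The simulation gave probes independent noise and both arrays the same form of dye trend, so these rates may not hold for the real arrays. Other steps used jsonlite 2.0.0, data.table (1.17.8), Python 3.11.15, numpy 2.4.6, pandas 2.3.3, scipy 1.17.1 and matplotlib 3.10.9.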

Additional observations from a re-analysis of the deposited data

How the results depend on the processing

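The count of ribosomal protein probes above 0 on both arrays stayed within 1.5 times of 111 under each alternative tried, and limma or the t-test called 0 members after adjustment under each of them except median centring, which called 46. The count below 0 on both arrays, 4, was 1 with median centring, 2 with the deposited values and 9 to 10 with either array alone. The median log2 ratio, 0.322, was 0.786 with median centring, 0.217 with the scanner ratio and 0.217 with a loess span of 0.1, which was chosen after seeing the data; with either array alone it was 0.295 to 0.379. Of 336 values of 24 named genes under the alternatives, 306 kept their direction and side of the threshold, 12 passed the threshold with median centring, 5 moved when a gene's probes were averaged, and 13 changed sign. The sign changed for Rpl11 (0.235 with median centring, 0.545 without replicate 1, -1.10 without replicate 2), Rps27l (0.324 with median centring) and Rpl7l1 (-0.038 with its probes averaged, -0.021 without replicate 1, 0.103 without replicate 2). It changed for Rpl31 with an offset of 10 (-0.00405), no background subtraction (-0.00575), the deposited values (-0.034) and scaled arrays (-0.0187), and it ranged from -0.0926 without replicate 2 to 0.121 without replicate 1, and for Rps13 with the scanner ratio (-0.126) and a span of 0.1 (-0.0138), with a range from -0.295 without replicate 2 to 0.603 without replicate 1. The cause was not tested. Adjusted p-values of the 5 highest genes ranged from 2.16e-05 to 0.585 over the alternatives. No paired analysis was possible because the 2 arrays, different comparisons that were treated as replicates of 1 group, are each already a ratio of 2 RNAs. Neither a dye swap nor a further slide was part of the design.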
